A study of Mus musculus with 12 samples.

Results

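The genes described here are 10 components of transforming growth factor beta (TGF-beta) signalling, taken by symbol from a table of 55487 genes measured in mouse kidney: the ligands Tgfb1, Tgfb2 and Tgfb3, the latent binding protein gene Ltbp1, the receptors Tgfbr1 and Tgfbr2, the signal transducers Smad2 and Smad3, the inhibitor Smad7, and Bmp7, a ligand of the related bone morphogenetic protein (BMP) branch. All 10 were found and all 10 passed the filter on low counts. Whole-kidney messenger RNA came from male mice that have XLAS, the X-linked form of Alport syndrome, which is a hereditary disease of the type IV collagen network of the glomerular basement membrane. The mice were on the B6 background, the labels name Col4a5 with the genotype HET, and kidneys were taken at 30 weeks. Of the 12 kidney libraries, 6 were from mice fed chow with fisetin (500 ppm), a plant flavonol, and 6 from mice fed control chow. Both diet groups carry the disease, and no unaffected kidney was used here. HET cannot describe an X-linked gene in a male, so no allele status is used.

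TGF-beta is secreted bound to a latent complex that Ltbp1 tethers to the extracellular matrix. Once released, the ligand binds the type II receptor (Tgfbr2), which phosphorylates the type I receptor (Tgfbr1), and the type I receptor then phosphorylates SMAD2 and SMAD3, which enter the nucleus and switch on matrix genes. SMAD7 is induced by the same signal and holds the receptor back, and BMP7, made by tubule cells and podocytes, is known in rodent kidney injury for opposing TGF-beta. Message levels do not show how much ligand is active or how much SMAD is phosphorylated.

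Library totals ran from 16310214 to 24451821 counts with fisetin and from 18638748 to 22396857 with the control diet (n = 6 each), and the 2 batches named in the labels held 3 libraries of each diet. Whether every library is a separate animal is not stated in the labels, and p-values measure the spread between these libraries. Libraries are called fisetin 1 to 6 and control 1 to 6 in accession order, which pairs nothing. Kidney markers were abundant in both groups: the proximal tubule phosphate transporter gene Slc34a1 averaged 2594 ± 847 CPM with fisetin, against 3318 ± 766 CPM with the control diet (n = 6 each, SD; CPM, counts scaled to library depth and by the trimmed mean of M-values, TMM).

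The ligand genes Tgfb1 and Tgfb2 had similar patterns across kidneys (batch-centred r = 0.82 over 12 libraries), and their promoters are shown because they are built differently. The 100 bases before each RefSeq start are given 5′ to 3′ on the gene's strand (GRCm38.p6), for Tgfb1 chr7:25686902-25687001 on the plus strand and for Tgfb2 chr1:186705990-186706089 on the minus strand. Capitals mark matches on either strand to the motifs searched. These were the GC box, spelled GGGCGG, which is the site of SP1 and its relatives, and the TATA box, spelled TATAAA. The SMAD box, searched as CAGAC, is the short element bound by SMAD3 and SMAD4. Sites of transcription factors that often act beside SMADs were searched for AP-1 as TGANTCA. For TEAD factors the letters were GGAATG, and for the core of the cyclic AMP element they were TGACGT.
Tgfb1: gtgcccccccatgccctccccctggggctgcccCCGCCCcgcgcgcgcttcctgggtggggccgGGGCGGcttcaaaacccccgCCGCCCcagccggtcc
Tgfb2: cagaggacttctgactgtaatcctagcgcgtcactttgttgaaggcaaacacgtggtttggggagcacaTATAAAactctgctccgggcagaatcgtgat
In the Tgfb1 stretch the capitals mark 3 GC boxes, and in the Tgfb2 stretch 1 TATA box. Over the full 250 bases before the start, Tgfb1 held 5 GC boxes at a GC content of 75.2%, and Tgfb2 held 1 TATA box and 2 SMAD boxes at 53.6%. Of all 32851 promoters in the table, 32.7% held a GC box, 12.4% a TATA box and 42.2% a SMAD box in the same window. The AP-1, TEAD and cyclic AMP element letters, found in 6.75%, 12.6% and 6.47% of promoters, were in neither window, and the median GC content over all promoters was 52.4%. A match is a run of letters and no more, and the Tgfb2 stretch overlaps 1 annotated exon, whose gene was not recorded.

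Tgfb1, the ligand most often tied to kidney fibrosis, was by far the most abundant of the ligand messages per unit length. It lies on chromosome 7 (25687002 to 25705077, GRCm38). Its FPKM (fragments per unit of transcript length and depth, as deposited) had a lowest, median and highest value of 18.8, 33.0 and 40.0 with fisetin and of 22.1, 26.6 and 38.3 with the control diet. Tgfb1 made up 82.9 ± 1.33% of the summed FPKM of the 3 ligands with fisetin, against 81.4 ± 2.32% with the control diet (n = 6 each, SD), with a range over all libraries of 78.6% to 84.6%. Tgfb2 (chromosome 1, 186622792 to 186705989) and Tgfb3 (chromosome 12, 86056745 to 86079041) shared the rest about evenly, at 8.76 ± 1.52% and 8.31 ± 0.918% with fisetin and at 9.12 ± 1.84% and 9.48 ± 0.703% with the control diet. Tgfb2 shares exon bases with Gm29491 on the opposite strand, and Tgfb3 with Gm37804 and Gm48008, also on the opposite strand. Whether counting used strand is not given in the sources used here, so their values may include reads of those genes.

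Across all 10 genes the order of mean FPKM over 12 libraries was Tgfbr2 (52.2), Tgfb1 (29.7), Tgfbr1 (29.6), Smad2 (25.1), Ltbp1 (22.9), Smad3 (19.99), Smad7 (16.6), Bmp7 (9.80), Tgfb2 (3.27) and Tgfb3 (3.19). The type II receptor gene stood above Tgfb1 in 12 of 12 libraries. Tgfb1 and Tgfbr1 could not be ordered, with Tgfb1 the higher in 5 of 12, nor could Tgfb2 and Tgfb3, with Tgfb2 the higher in 6 of 12. From Tgfbr1 down to Smad7 the ranges of neighbours overlapped, although the higher-ranked gene of each pair was ahead in 10 or 11 libraries. Smad7 against Bmp7 and Bmp7 against Tgfb2 were the neighbours whose ranges did not overlap. The type II receptor exceeded the type I receptor 1.66 ± 0.104 times in FPKM with fisetin, against 1.90 ± 0.165 times with the control diet (n = 6 each, SD), with overlapping ranges of 1.54 to 1.83 and 1.69 to 2.13.

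**Figure D1:**
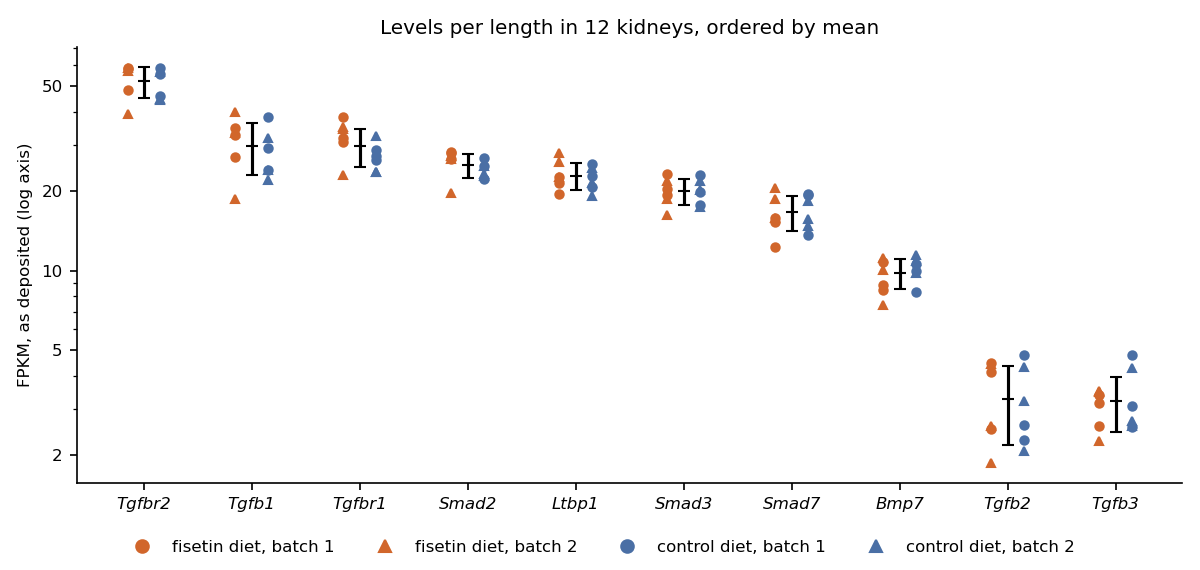
Deposited FPKM of the 10 genes on a log axis, each point 1 library (orange, fisetin; blue, control diet; circles, batch 1; triangles, batch 2), with black bars for the mean ± SD over 12 libraries. Tgfbr2 stands highest at a mean of 52.2 FPKM, and Tgfb2 and Tgfb3 lie lowest at 3.27 and 3.19.

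Fisetin against control diet was then compared for each gene, with batch as a covariate. None of the 10 genes passed by edgeR (quasi-likelihood test, p adjusted over all 17890 genes tested), and 0% of the whole table passed. At an unadjusted p under 0.05, 1 of the 10 was higher and 0 lower, against 14.6% of genes in the table, 8.23% higher and 6.34% lower. DESeq2 called 0 of the 10 (0.861% of the table, or 15.7% at an unadjusted p under 0.05). Of the 10, 5 had positive and 5 negative fold changes with a median log2 value of 0.02, against 50.2% positive and 49.8% negative and a median of 0.0008 over all genes tested. The diet groups overlapped in all 10, as in all but 0.894% of genes tested. Mean levels differed by at most 1.204-fold (Tgfb2, higher) and 0.892-fold (Tgfb3, lower).

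The 3 ligands pointed in different directions. Tgfb1 had a lowest, median and highest CPM of 38.3, 58.2 and 68.9 with fisetin, against 42.7, 50.5 and 69.1 with the control diet. The fisetin kidneys held both the lowest library of all (fisetin 6) and one of the 2 highest (fisetin 5), and the groups overlapped over nearly their whole range. The log2 fold change was 0.08 ± 0.14 (SE; edgeR adjusted p = 0.786), with a 95% interval from 0.852-fold to 1.315-fold. Tgfb2, which has roles in kidney development, had 7.74, 11.6 and 14.8 CPM with fisetin against 6.90, 8.34 and 12.9 CPM with the control diet. It was above the control mean in 5 of 6 fisetin libraries, with a log2 fold change of 0.27 ± 0.19 (edgeR adjusted p = 0.482; interval 0.902-fold to 1.61-fold). That value moved with the scale and the libraries, to 0.036 on log2(FPKM + 1), 0.47 by limma-voom with quality weights and between 0.17 and 0.39 with each library left out. Tgfb3 had 7.52, 9.60 and 10.5 CPM with fisetin against 8.09, 9.17 and 14.5 CPM with the control diet. Control 1 and control 5 were the only libraries of the 12 above 12 CPM for Tgfb3, and the log2 fold change was -0.16 ± 0.16 (edgeR adjusted p = 0.603; interval 0.704-fold to 1.13-fold). It was -0.03 without control 1 and -0.07 without control 5. Ltbp1 on chromosome 17 (75005568 to 75392512), whose product stores the latent ligand in matrix, had 33.2, 40.1 and 42.8 CPM with fisetin against 39.0, 42.5 and 48.4 CPM with the control diet. It was below the control mean in 5 of 6 fisetin libraries, at -0.13 ± 0.07 (edgeR adjusted p = 0.392), and it was at 0.05 on log2(FPKM + 1).

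The gene with the smallest p was Tgfbr1 on chromosome 4 (47353222 to 47414931), which encodes the type I receptor kinase. It had a lowest, median and highest CPM of 113, 148 and 169 with fisetin, against 116, 122 and 140 with the control diet. Fisetin 6 was the lowest of all 12 libraries, fisetin 3 lay within the control range, and the 4 other fisetin kidneys lay above every control. The log2 fold change was 0.23 ± 0.09 (SE; unadjusted p = 0.0228, edgeR adjusted p = 0.304), a 1.18-fold difference with an interval from 1.03-fold to 1.35-fold. It was 0.27 in batch 1 and 0.18 in batch 2, as differences of mean log2 CPM. limma-voom with sample quality weights, which gave fisetin 6 the lowest weight, called Tgfbr1 (adjusted p = 0.0274) and 13.4% of all genes. Tgfbr2 on chromosome 9 (116084293 to 116175360), the receptor that binds the ligand first, had 186, 241 and 252 CPM with fisetin against 203, 222 and 246 CPM with the control diet, at 0.05 ± 0.08 (edgeR adjusted p = 0.797).

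Markers of other cell types were summarised in the same kidneys, and none of them passed by edgeR. All 11 macrophage markers had positive fold changes (mean log2 CPM of the list, 5.003 to 6.15 with fisetin against 5.17 to 5.90 with the control diet). All 10 tested markers of T, NK and B cells were positive as well (1.31 to 3.72 against 0.98 to 3.12), while all 10 proximal tubule markers were negative (8.38 to 9.79 against 9.02 to 9.82). The diets overlapped in these 3 list means. In the other lists the signs were mixed. Negative fold changes were seen in 9 of 11 collecting duct, 6 of 7 thick limb and distal tubule, 8 of 10 endothelial and 6 of 8 podocyte markers. Positive ones were seen in 8 of 10 fibroblast and pericyte and 5 of 9 tubular injury markers. Of the collecting duct markers, 6 were lower at an unadjusted edgeR p under 0.05 (14.6% of the table), against 2 proximal tubule markers, and DESeq2 called 1 (0.861% of the table). By limma-voom with quality weights, which called 13.4% of all genes, 8 of 11 macrophage markers passed, all 8 higher. So did 5 of 11 collecting duct and 4 of 10 proximal tubule markers, 0 of them higher. It also called 3 of 10 T, NK and B cell, 2 of 7 thick limb and distal tubule and 1 of 8 podocyte markers. It called 0 of the endothelial, fibroblast and pericyte, and tubular injury markers. Klrb1c was below the count filter, at 11 counts at most. In whole kidney, fewer cells of a type and less RNA per cell cannot be told apart, and the part of cell makeup in the Tgfbr1 difference was not tested.

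The SMAD genes had small differences. Smad2 on chromosome 18 (76241580 to 76310963) had 67.6, 76.7 and 82.9 CPM with fisetin against 69.7, 72.6 and 77.5 CPM with the control diet, a log2 fold change of 0.07 ± 0.05 (edgeR adjusted p = 0.486). Smad3 on chromosome 9 (63646767 to 63757994), the transducer that binds DNA at matrix genes, had 79.2, 87.8 and 106 CPM against 83.6, 88.5 and 97.0 CPM, at -0.01 ± 0.07 (edgeR adjusted p = 0.957). Their 95% intervals ran from 0.972-fold to 1.14-fold for Smad2 and from 0.897-fold to 1.10-fold for Smad3. Smad7 on chromosome 18 (75367529 to 75395935), itself a target of the pathway, had 43.5, 52.0 and 61.4 CPM with fisetin against 45.0, 51.8 and 54.8 CPM with the control diet, at -0.0011 ± 0.08 (edgeR adjusted p = 0.996). Bmp7 on chromosome 2 (172868012 to 172940321) had 23.6, 30.2 and 39.7 CPM with fisetin against 26.1, 33.9 and 40.2 CPM with the control diet, at -0.14 ± 0.13 (edgeR adjusted p = 0.590). Its fisetin kidneys held the lowest library of the 12 (fisetin 5), and 4 of 6 lay below the control mean. Without fisetin 5 the log2 fold change was -0.05.

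**Figure D2:**
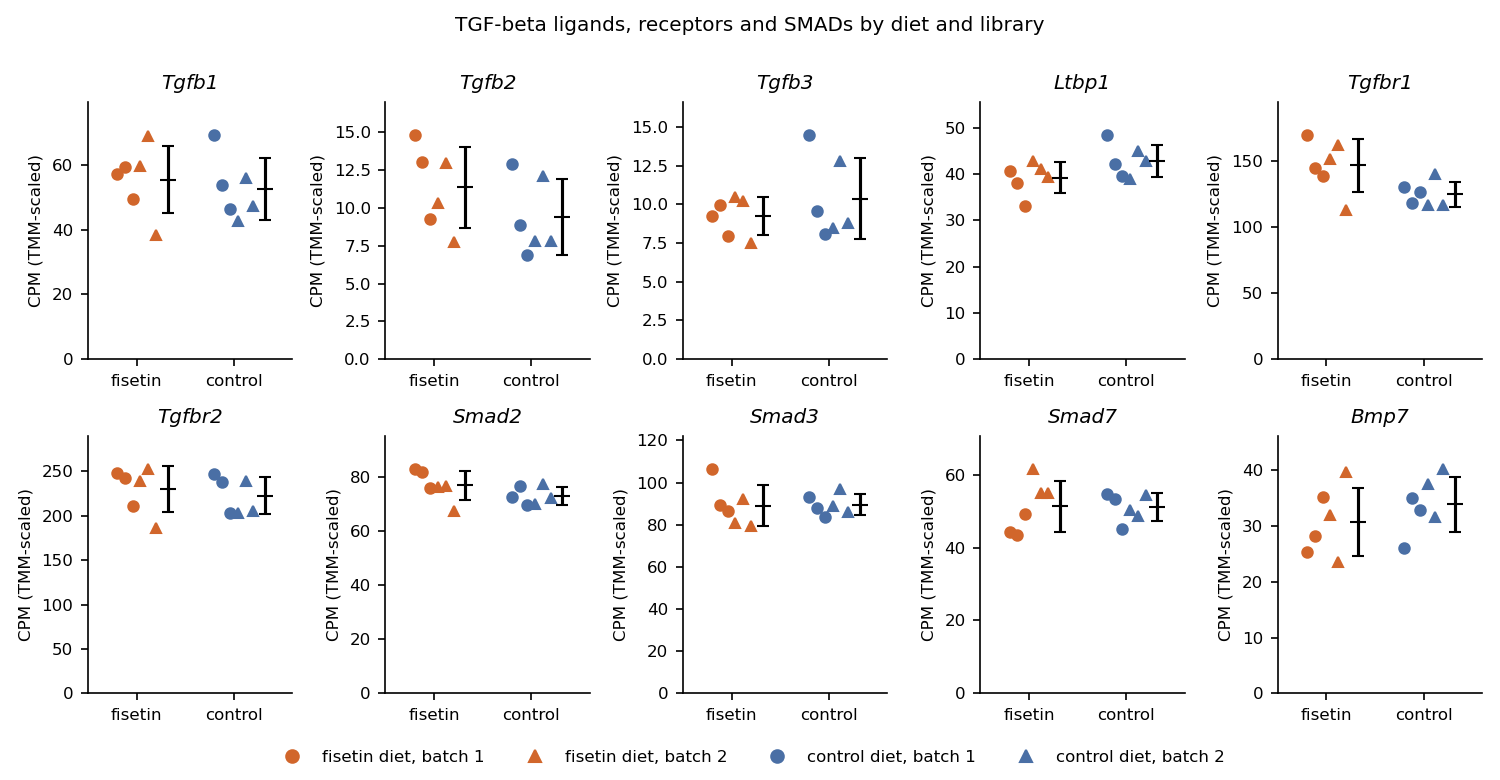
CPM (TMM-scaled) of each gene, fisetin left and control diet right, each point 1 library (circles, batch 1; triangles, batch 2), with black bars for the mean ± SD of 6 libraries. The diets overlap for every gene, and Tgfbr1 has 4 of its 6 fisetin libraries above the highest control.

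Neither batch nor its interaction with diet gave a call for any of the 10 genes, and 0% of all genes tested passed (edgeR adjusted p under 0.05). Smad7 had the smallest interaction p of the 10. Its CPM in batch 1 was 44.2, 43.5 and 49.1 with fisetin against 54.8, 53.4 and 45.0 with the control diet, and in batch 2 it was 61.4, 54.8 and 55.1 with fisetin against 50.3, 48.7 and 54.4. All 3 fisetin libraries lay below the control mean in batch 1 and all 3 lay above it in batch 2. The differences of mean log2 CPM were -0.16 and 0.16, and the interaction was 0.32 ± 0.13 (unadjusted p = 0.0265, edgeR adjusted p = 1.000; 2.10% of genes tested had an unadjusted p under 0.05).

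The rest of the pathway was described by gene lists, of which no member passed over all genes by edgeR. Among 26 other components of TGF-beta signalling (further receptors, latent binding proteins, activating integrins, SMAD4 and its co-repressors), 11 had positive and 15 negative fold changes with a median log2 value of -0.02. The smallest p belonged to Smad4, the shared partner of receptor-activated SMADs, with 68.0 ± 2.86 CPM with fisetin against 63.1 ± 1.48 CPM with the control diet (SD, n = 6 each). Fkbp1a, whose product guards the type I receptor against leaky activation, had 143 ± 4.87 against 154 ± 5.76 CPM, and Skil, a SMAD co-repressor gene, had 125 ± 16.6 against 108 ± 5.96 CPM. Of 20 TGF-beta target genes, 11 were positive and 9 negative (median 0.07). The 3 with the smallest p were Zeb2, a transcription factor of mesenchymal cells (264 ± 43.4 against 220 ± 28.5 CPM), Ccn2, which encodes connective tissue growth factor (132 ± 13.8 against 119 ± 10.7 CPM), and Acta2, smooth muscle actin of myofibroblasts (64.8 ± 9.06 against 75.1 ± 13.2 CPM).

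In the BMP list, 27 of 29 genes passed the count filter, 15 positive and 12 negative (median 0.01), and Nog and Hamp did not pass. The direct BMP target Id3 had 62.1 ± 7.44 CPM with fisetin against 48.9 ± 2.28 CPM with the control diet, a log2 fold change of 0.34 ± 0.08 (edgeR adjusted p = 0.223; DESeq2 adjusted p = 0.0151, where 0.861% of all genes passed). Its relative Id1 had 14.6 ± 2.15 against 11.7 ± 1.14 CPM, and Kcp, a secreted protein gene that enhances BMP signalling in mouse, had 8.06 ± 2.11 against 10.7 ± 1.09 CPM. Sostdc1 (USAG-1), a BMP7 antagonist of the distal tubule, was chosen after its values were seen and had 38.0 ± 5.45 against 44.6 ± 6.23 CPM (edgeR adjusted p = 0.332).

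Matrix genes did not share a direction either. Of 29 interstitial matrix genes, 11 were positive and 18 negative (median -0.02), and 0 passed by edgeR or DESeq2. With limma-voom and quality weights 1 passed, Col12a1 (higher, adjusted p = 0.0320), where 13.4% of all genes passed. Vcan, a proteoglycan, had 11.5 ± 2.18 against 15.1 ± 1.56 CPM, Col12a1 had 233 ± 71.0 against 161 ± 48.9 CPM, and Col6a2 had 60.7 ± 7.04 against 69.3 ± 8.13 CPM (fisetin against control diet, SD, n = 6 each). Of 17 basement membrane genes, 7 were positive and 10 negative. The smallest p belonged to Col4a4 (303 ± 49.0 against 377 ± 38.2 CPM) and Col4a3 (355 ± 44.9 against 417 ± 43.5 CPM), chains of the Alport collagen network, and Col4a6 was near the count filter with at most 19 counts in a library.

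The kidneys differed from one another in matrix expression, whatever the diet, and some of the TGF-beta genes varied with it, how many depending on the test. A matrix score was taken as the mean log2 CPM of the 29 matrix genes, each centred over libraries. It had an SD of 0.190 and a range of 0.575, with control 1 the highest (0.29), fisetin 2 next (0.20), and fisetin 6 (-0.26) and fisetin 3 (-0.29) the lowest. Fisetin 3, fisetin 6, control 4 and control 6 stood 0.198 below the other 8. The mean of the uncentred score was 6.48 ± 0.212 with fisetin, against 6.49 ± 0.186 with the control diet (n = 6 each, SD).

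With the matrix score as a covariate beside batch and diet, 7 of the 10 genes passed over all genes tested by edgeR's quasi-likelihood test, 6 higher and 1 lower where matrix genes were higher. Over all 17861 genes outside the matrix list, 23.9% passed, 9.87% higher and 14.0% lower. The ligands had the steepest slopes. Per SD of the score, the log2 change was 0.23 ± 0.04 for Tgfb1 (SE; edgeR adjusted p = 0.00252), 0.27 ± 0.07 for Tgfb2 (0.0122) and 0.24 ± 0.05 for Tgfb3 (0.00638). Both receptors passed with smaller slopes, at 0.13 ± 0.03 for Tgfbr2 (edgeR adjusted p = 0.00671) and 0.11 ± 0.04 for Tgfbr1 (0.0419), and so did Ltbp1 at 0.10 ± 0.03 (0.0231). Bmp7 was the gene that passed in the other direction, at -0.20 ± 0.04 (edgeR adjusted p = 0.00384). The SMAD genes did not pass, with slopes of 0.04 ± 0.03 for Smad2, 0.05 ± 0.03 for Smad3 and 0.02 ± 0.04 for Smad7 and edgeR adjusted p from 0.243 to 0.775. The Tgfbr1 call was lost without each of 7 libraries in turn and the Ltbp1 call without each of 3.

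**Figure D3:**
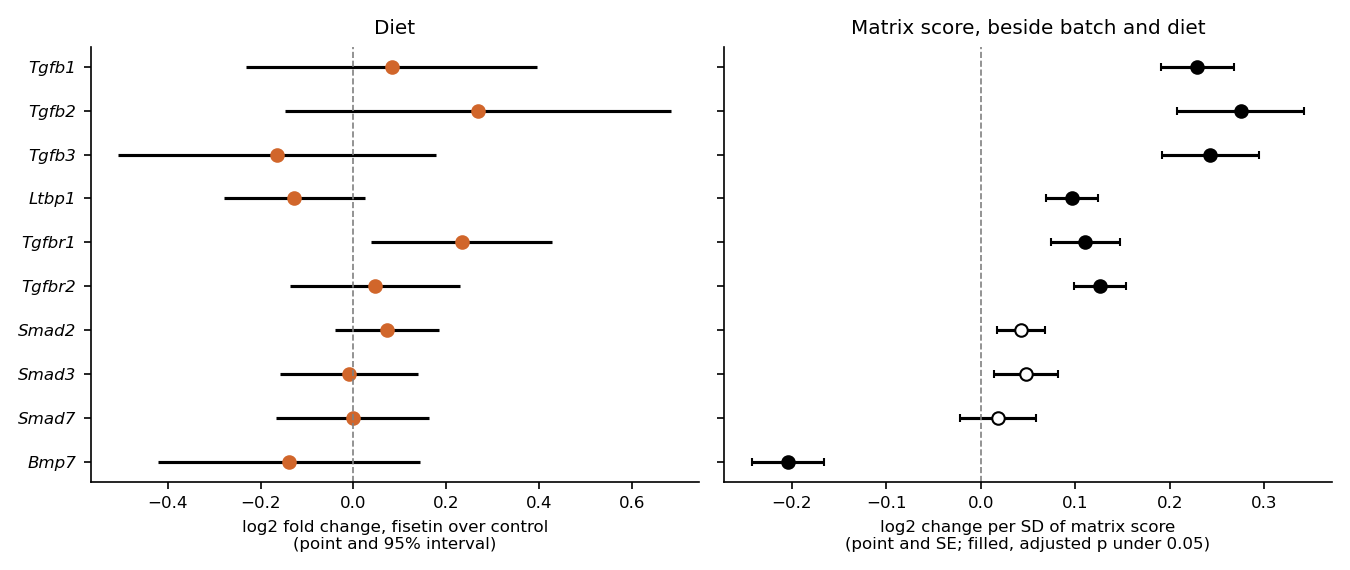
Left, log2 fold change of fisetin over control diet with its 95% interval for each gene; right, log2 change per SD of the matrix score with its SE from the fit with batch and diet, filled where the edgeR adjusted p is under 0.05. On the left no gene passed the threshold, and on the right 6 filled points lie at positive values and the filled point of Bmp7 at -0.20.

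The same relation was examined as a plain correlation of log2 CPM with the matrix score over the 12 libraries, with permutation p-values adjusted over all 17861 genes. Tgfb1 had r = 0.87 (rho = 0.87; permutation p = 0.00029, adjusted p = 0.0233; rho adjusted p = 0.0352). Tgfbr2 had r = 0.85 (rho = 0.80; permutation p = 0.00081, adjusted p = 0.0281; rho adjusted p = 0.0432), and Tgfb3 had r = 0.80 (rho = 0.90; permutation p = 0.00119, adjusted p = 0.0313; rho adjusted p = 0.0336). Bmp7 had r = -0.82 (rho = -0.83; permutation p = 0.0016, adjusted p = 0.0339; rho adjusted p = 0.0399). These 4 passed by r and by rho, against 10.2% of all genes by r (3.68% positive, 6.48% negative) and 9.09% by rho. With values centred and permuted within batches, Tgfb1 alone still passed (r = 0.86, permutation adjusted p = 0.0479), and Bmp7, Tgfbr2 and Tgfb3 did not (r = -0.80, 0.84 and 0.83; adjusted p = 0.0527, 0.0618 and 0.0626). An r as high as that of Tgfb1 was reached by 0.476% of genes, and as high as that of Tgfb2 (r = 0.71, rho = 0.73; permutation p = 0.0125, adjusted p = 0.0720) by 5.62%. Ltbp1 (r = 0.61, rho = 0.51), Tgfbr1 (r = 0.53, rho = 0.60), Smad2 (r = 0.51, rho = 0.59) and Smad3 (r = 0.45, rho = 0.59) did not pass, with permutation p of 0.0308, 0.0783, 0.0948 and 0.137 for r and adjusted p of 0.114 to 0.274. Smad7 had r = -0.07 (rho = -0.06; permutation p = 0.817).

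**Figure D4:**
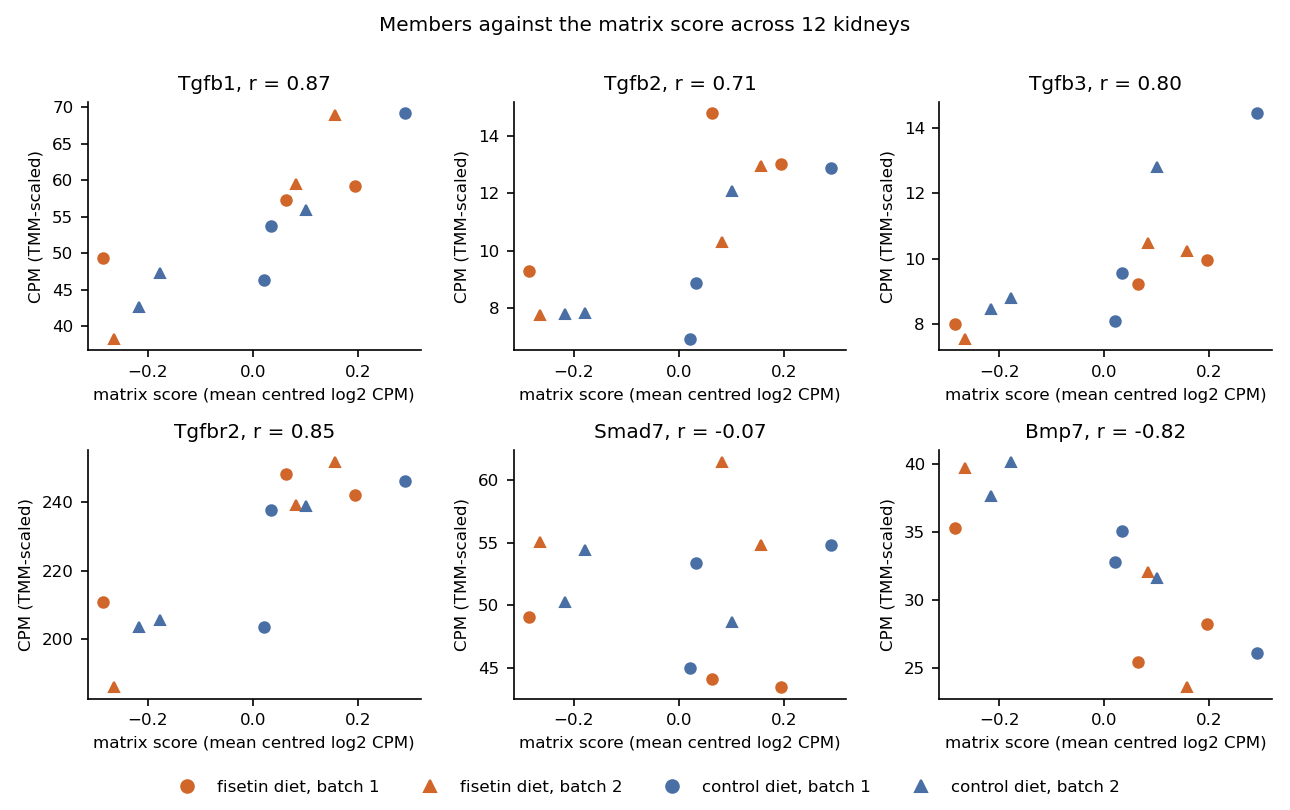
CPM of 6 of the genes against the matrix score, each point 1 library (orange, fisetin; blue, control diet; circles, batch 1; triangles, batch 2), with Pearson's r of log2 CPM in each title. Tgfb1 is higher (r = 0.87) and Bmp7 lower (r = -0.82) in the libraries with higher scores, of either diet, and Smad7 has r = -0.07.

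Within the batches, each with 6 libraries, the 4 relations kept their sign and had a larger absolute r in batch 2, which was not tested. The 4 had been picked by their r over the same libraries. For Tgfb1 r was 0.77 in batch 1 and 0.96 in batch 2 (exact permutation p = 0.0722 and 0.00417), and for Tgfbr2 0.68 and 0.98 (exact p = 0.151 and 0.00278). For Tgfb3 it was 0.80 and 0.87 (exact p = 0.0736 and 0.0403), and for Bmp7 -0.72 and -0.88 (exact p = 0.0958 and 0.0208). Tgfbr1 and Smad2 followed the score in batch 2 alone, with r of 0.97 and 0.96 there and of -0.0033 and 0.04 in batch 1, a difference that was not tested. Within fisetin kidneys r was 0.86 for Tgfb1 and -0.83 for Bmp7, and within control kidneys 0.92 and -0.95 (n = 6 each; exact permutation p = 0.0278 and 0.05 with fisetin, 0.00694 and 0.00694 with the control diet).

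Without fisetin 3 and fisetin 6, the libraries farthest from the median score, r was 0.89 for Tgfb1, 0.81 for Tgfbr2, 0.72 for Tgfb3 and -0.81 for Bmp7, and the last 2 no longer passed (permutation adjusted p = 0.0951 and 0.0534). Among the 8 libraries above the gap alone, r was 0.81 for Tgfb1 and 0.74 for Tgfb3 (exact permutation p = 0.0157 and 0.0379) and 0.52 for Tgfbr2 and -0.60 for Bmp7 (exact p = 0.163 and 0.120). All 4 calls were lost without any one of fisetin 6, control 1 and control 4, when 0 to 87 genes passed in the whole table. The r of Tgfb1 stayed between 0.83 and 0.92 with each library left out in turn.

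The matrix score did not vary on its own. Across the same 12 libraries it had r = -0.72 with the proximal tubule marker score, -0.76 with that of thick limb and distal tubule, 0.76 with that of macrophages and 0.94 with that of fibroblasts and pericytes, all given as descriptions. Bmp7 had r = 0.97 with thick limb and distal tubule markers (rho = 0.96; permutation p = 1e-05, the smallest possible; adjusted p = 0.000243; 0.94 and 0.99 in batches 1 and 2, exact p = 0.0292 and 0.00833; 0.94 without the 2 farthest libraries). Tgfb1 had r = 0.92 with macrophage markers (rho = 0.88; permutation p = 8e-05, adjusted p = 0.000917; 0.77 and 0.99 in batches 1 and 2, exact p = 0.0694 and 0.00278; 0.86 without the 2 farthest). Both genes also had large values with other scores, given as descriptions. Bmp7 had r = 0.94 with proximal tubule, 0.90 with collecting duct, 0.85 with endothelial and -0.90 with macrophage markers. Tgfb1 had r = -0.91 with distal tubule, -0.87 with proximal tubule, 0.85 with fibroblast and -0.84 with endothelial markers. By r, 6 of the 10 genes passed with each of the proximal tubule, distal tubule and macrophage scores (30 relations over the 10 genes). Tgfb3, Ltbp1, Smad3 and Smad7 passed with none of them. Their r ran from -0.59 to 0.55 for Tgfb3, -0.24 to 0.16 for Ltbp1, -0.61 to 0.55 for Smad3 and -0.11 to 0.12 for Smad7. By rho, Tgfb3 and Smad3 passed with the distal score (rho = -0.69 and -0.70, permutation adjusted p = 0.0461 and 0.0396). These scores were shared by much of the table, since 41.6%, 41.8% and 38.9% of genes passed with them. With the proximal tubule, macrophage or fibroblast score added as a further covariate, the matrix slope passed for 0 of the 10 genes and for 0% of all genes. With the fibroblast score most slopes were near to or larger than before, with wider errors for the ligands, receptors and Bmp7. They were 0.23 ± 0.15 for Tgfb1, 0.40 ± 0.26 for Tgfb2, 0.47 ± 0.19 for Tgfb3, 0.21 ± 0.14 for Tgfbr1, 0.13 ± 0.11 for Tgfbr2 and -0.19 ± 0.15 for Bmp7 (SE). The slopes of Smad2 and Smad3 were 0.070 and 0.054 with that score, against 0.042 and 0.048 before. Those of Ltbp1 and Smad7 turned negative (-0.013 and -0.10). With the macrophage score the slope of Tgfb1 was 0.05 ± 0.05 and that of Bmp7 -0.11 ± 0.07, and with the proximal tubule score they were 0.09 ± 0.05 and -0.06 ± 0.05. The slope of Tgfb3 was 0.17 ± 0.10 and 0.21 ± 0.09 with these scores. The separate part of each cell type in these relations was therefore not resolved by 12 libraries.

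Among single matrix genes, Tgfb1 was closest to Col5a2 (r = 0.95), Tgfb2 to Col12a1 (r = 0.93) and Tgfb3 to Loxl2, a collagen cross-linking enzyme gene (r = 0.92), as the highest of 29 values each. Tgfb1 had a positive r with 26 of the 29, with a median of 0.81, whereas Bmp7 had a positive r with 3 of 29 and a median of -0.71. Of the 26 other pathway components, 4 passed positively and 3 negatively with the matrix score by r (permutation adjusted p under 0.05). The shares of all genes were the 3.68% and 6.48% given above. Ltbp3 (r = 0.95), Ltbp2 (r = 0.86) and Thbs1, which encodes an activator of latent TGF-beta (r = 0.83), were among the positive ones, and the integrin gene Itgb8 (r = -0.84) among the negative ones. All were named after their values were seen. Of 20 TGF-beta targets, 6 passed by r, all positive. Tgfbi (r = 0.83) and Pmepa1 (r = 0.82) had the highest r and were also named after their values were seen. The target Nox4 went the other way and did not pass by r (r = -0.74, permutation adjusted p = 0.0555). Its rho of -0.82 was larger in absolute value than the 0.80 of Tgfbr2, which passed by rho (permutation adjusted p = 0.0432). Of 27 BMP pathway genes 1 passed by r, Smad1 (r = 0.77), a smaller share than the 10.2% of all genes.

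Against one another, and with batch centred out, the 10 genes gave 45 pairs, 33 of them with a positive r and a median of 0.36, as a description over 12 libraries that share depth and cell makeup. Tgfb1 and Tgfbr2 were the closest pair (r = 0.94), and Tgfb2 went with Tgfbr2 (0.87), Tgfb1 (0.82) and Tgfbr1 (0.81). Tgfb3 and Ltbp1 went together (0.79) while Ltbp1 had 0.01 with Tgfbr1. Bmp7 was negative with 8 of the other 9, down to -0.86 with Tgfb1 and with Tgfb2. Smad7 stood apart, between -0.40 (Smad3) and 0.35 (Ltbp1).

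**Figure D5:**
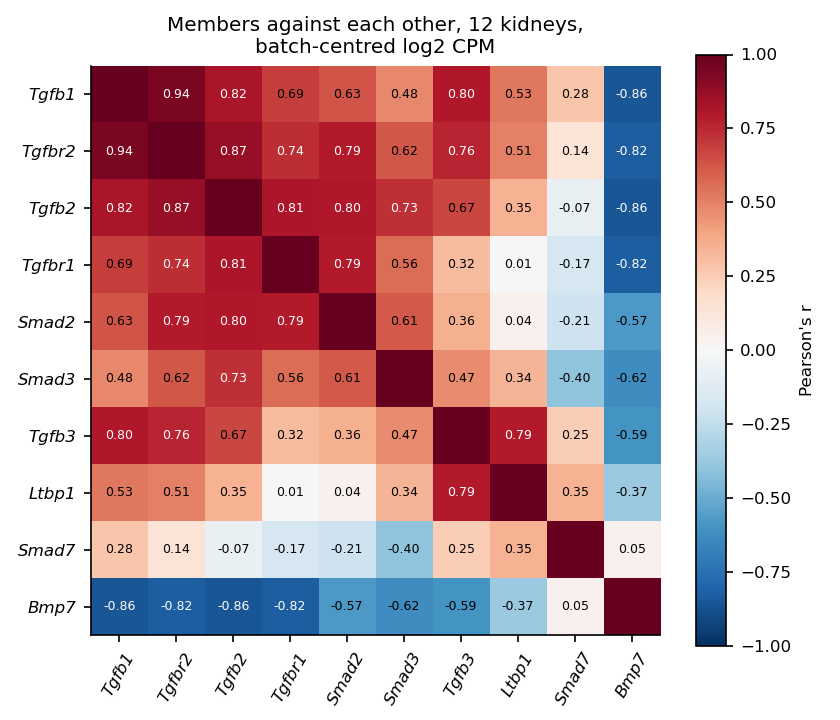
Pearson's r between the 10 genes over 12 libraries of batch-centred log2 CPM, from -1 (blue) to 1 (red). Tgfb1, Tgfbr2, Tgfb2 and Tgfbr1 form a block with r from 0.69 to 0.94, Bmp7 is negative with all but Smad7, and Smad7 is pale throughout.

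Among 13279 other genes at a mean log2 CPM of 2 or more, those with the most similar pattern (highest batch-centred r over 12 libraries) were Tubb5 and Hdac7 for Tgfb1 (both r = 0.98), Gpr31c and Adamtsl4 for Tgfb2 (0.98 and 0.97) and Loxl2 and S100a6 for Tgfb3 (0.95 and 0.94). Cdc25a and 1110038F14Rik were the nearest to Ltbp1 (0.92 and 0.89), Sesn3 and Cdk12 to Tgfbr1 (both 0.98) and Arhgef40 and Plec to Tgfbr2 (0.99 and 0.98). For the SMAD genes they were Myo9a and Specc1 (Smad2, 0.97 and 0.96), Srbd1 and Spry2 (Smad3, 0.95 and 0.92) and Rmrp and Otud5 (Smad7, 0.92 and 0.89). For Bmp7 they were Atp1b1, the beta subunit of the sodium pump that drives tubular transport, and Gss, glutathione synthetase (both r = 0.99). These are the highest of many values and carry no test.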

How the data were processed

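Messenger RNA of 12 whole kidneys was sequenced. The kit was KAPA mRNA HyperPrep, per the labels' protocols. Tools in the submitters' processing notes are fastp, STAR, DESeq2 and featureCounts, with mm10 and GRCm38 as builds. Versions, annotation and strand of counting were not found in the labels. Per the file headers, each library has estimated counts, TPM and FPKM. The estimated counts were deposited by the authors without depth scaling. Since 13.91% of values above 0 were fractional (tolerance 1e-06), they were rounded. The deposited TPM are scaled to a fixed total and the deposited FPKM to length and depth. One gene, Rn7s1, held 20.2% to 26.6% of TPM, so FPKM were used for levels. Over 66 pairs, libraries differed by 7.00 to 104.8 times counting noise.

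Genes passing filterByExpr (minimum count 10), 17890 in all, were tested with edgeR 4.0.16 (R 4.3.3; TMM, glmQLFit robust, glmQLFTest, two-sided) with batch and diet, and adjusted by Benjamini-Hochberg (threshold 0.05). SEs and 95% intervals come from the F statistic and its degrees of freedom. Log2 CPM used a prior count of 2. Correlations were tested with 100000 permutations of libraries for every gene, or over all arrangements within batches and diets, two-sided. DESeq2 1.42.0 and limma 3.58.1 were alternatives, together with RLE and total count scaling, no count filter, no batch term, each batch alone, log2(FPKM + 1 or 0.1) and leaving out each library. Steps were tested on simulated data in which genes varied independently apart from the changes planted. That does not show how the steps behave where many genes vary together, as they did here. Coordinates are from GENCODE on GRCm38, and promoters (used for 6 of the 10 genes) from RefSeq on GRCm38.p6. The promoters of Tgfb3, Smad2, Smad7 and Bmp7 were not used here. Named genes are the 10, the 2 most similar genes to each, the 3 list members with the smallest p, and the matrix gene closest to each ligand, besides those said to be chosen after their values were seen. The 10 genes and the gene lists were chosen with earlier results of these data known.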

Additional observations from a re-analysis of the deposited data

Results flagged for a closer look

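Smad7 moved in opposite directions in the 2 batches: all 3 fisetin libraries lay below the control mean in batch 1 and all 3 above it in batch 2, a difference between batches of 0.323 on the log2 scale (edgeR adjusted p = 1.000 for the interaction over all genes, unadjusted p = 0.0265, where 2.10% of genes tested had an unadjusted p under 0.05). The share of all genes with such a pattern was not counted. In batch 1 the diets overlapped, with fisetin 3 at 49.1 CPM and control 3 at 45.0 CPM. No library of the 10 genes stood apart from its diet group by Dixon's gap ratio, whose highest value was 0.559 (Smad2 in fisetin 6) below the 95% critical value for 6 libraries in each of 20 groups; chance alone would pass about 1 group in 20.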

How the results depend on the processing

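No paired analysis was possible because the labels give the libraries no replicate numbers. The count of genes called for diet, 0 by edgeR, was 154 by DESeq2, 2390 by limma-voom with quality weights, 1 in batch 1 alone and 0 to 70 with each library left out (70 without fisetin 6). Of the 10 genes, limma-voom called 1 (Tgfbr1), and 0 passed with each library left out. Diet fold changes near 0 changed sign. Tgfb1 was at -0.027 in batch 1 and from -0.0093 to 0.17 with libraries left out. Tgfb3 was at 0.050 by limma-voom, and Ltbp1 at 0.054 and 0.056 on log2(FPKM + 1) and log2(FPKM + 0.1). Smad3 was at 0.0063 by limma-voom, 0.037 with total count scaling, 0.088 in batch 1 and from -0.060 to 0.030 with libraries left out. Smad7 was at 0.043 with total count scaling, 0.0017 with no filter, 0.0077 with no batch term, 0.17 in batch 2 and from -0.046 to 0.043 with libraries left out. Total count scaling moved the median of all genes to 0.05.

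The count of 4 genes correlated with the matrix score was 1 with batch-centred values, 9 with total count scaling (when 5205 genes passed), 6 on log2(FPKM + 1), 3 with collagens alone, 2 without the 2 farthest libraries and 0 to 5 with each library left out. It was 0 without fisetin 6, control 1 or control 4, 1 without fisetin 2, fisetin 4 or control 6, and 2 without control 5. The Smad7 r was 0.12 batch-centred, 0.26 with total count scaling, 0.33 on log2(FPKM + 1), 0.0025 with collagens alone and from -0.21 to 0.095 with libraries left out. The 7 genes of the covariate fit were 5 to 7 with libraries left out and 0 with the proximal tubule, macrophage or fibroblast score added, all chosen after seeing the data. The slopes that changed sign with those scores were -0.032 (tubule) and -0.026 (macrophage) for Tgfbr1, -0.015 and -0.031 for Smad2, -0.078 and -0.045 for Smad3, and with the fibroblast score -0.013 for Ltbp1 and -0.10 for Smad7. The Smad7 slope ran from -0.0056 to 0.042 with libraries left out. By TPM, 8 of the 10 genes kept their rank, and 6 to 10 did with libraries left out. The cause of these shifts was not tested. Tgfb2 and Tgfb3, with 138 to 276 counts per library, are the least precisely measured.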
